A study of Mus musculus with 6 samples.

Results

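The B cell receptor complex and its signalling were followed through 9 genes, Cd79a, Cd79b, Cd22, Blk, Btk, Blnk, Cr2, Fcrla and Cd72, in ATAC-seq peak lists of mouse blood leukocytes. Open chromatin peaks were assigned to a gene when the peak summit lay in the gene body or within 3 kb of an annotated start, which gave 25 of the 62876 regions found in the 6 libraries together. Male C57BL/6j mice were kept in normoxia throughout (control, 3 libraries) or moved to a hypobaric hypoxia chamber and then returned to normal oxygen, the high-altitude de-acclimatization phase (HADA, 3 libraries). Blood was cleared of red cells by lysis and the leukocytes were used without sorting. The day of blood collection for these libraries is not given in the sources used here. The labels do not say whether replicates were separate animals, so p-values measure the spread between these libraries, which may be technical.

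The B cell receptor is a membrane immunoglobulin that binds antigen but has almost no cytoplasmic tail, and it signals through the Igα and Igβ chains that Cd79a and Cd79b encode. Src family kinases such as Blk phosphorylate the tyrosine motifs of these chains, and the adaptor Blnk then brings Btk to phospholipase C. Complement receptor Cr2 lowers the threshold of the receptor, whereas Cd22 and Cd72 carry inhibitory motifs that recruit the phosphatase SHP-1. Most of these genes are used mainly by B cells, but Btk is also used by myeloid cells.

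The sequences below are those to which the results return. They comprise the 200 bases upstream of Cd79b, Blnk and Cr2, the stretches around an upstream Blk region, the HADA-only Blk region and the upstream Fcrla region, and an intronic Fcrla region found mainly in control libraries. All were read 5′ to 3′ on the strand of the gene from the GRCm39 assembly, and none of these windows holds an annotated exon. Capitals mark short matches to the motifs RUNX (TGTGGTT, in Cd79b), octamer (ATTTGCAT, in Blnk), E2A (CAGGTG, in Cr2 and Fcrla −1.1 kb), EBF (TCCCNNGGG, in both Blk stretches and Fcrla −1.1 kb) and ETS-IRF (GGAANNGAA, in Fcrla +8.2 kb), on either strand.
Cd79b promoter (chr11:106205589-106205788, minus strand): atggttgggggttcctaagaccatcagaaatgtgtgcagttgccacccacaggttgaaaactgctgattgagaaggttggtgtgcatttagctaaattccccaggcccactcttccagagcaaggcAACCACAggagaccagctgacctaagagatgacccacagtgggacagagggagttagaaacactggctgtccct
Blnk promoter (chr19:40982979-40983178, minus strand): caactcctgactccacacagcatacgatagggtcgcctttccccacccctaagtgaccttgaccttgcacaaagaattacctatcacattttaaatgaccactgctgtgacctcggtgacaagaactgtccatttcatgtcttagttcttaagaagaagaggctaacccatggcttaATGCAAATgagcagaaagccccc
Cr2 promoter (chr1:194859092-194859291, minus strand): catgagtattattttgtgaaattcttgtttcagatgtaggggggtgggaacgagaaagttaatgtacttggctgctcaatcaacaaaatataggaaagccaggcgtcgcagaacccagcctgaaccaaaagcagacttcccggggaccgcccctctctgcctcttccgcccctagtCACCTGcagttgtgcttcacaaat
Blk −1.6 kb (chr14:63656082-63656281, minus strand): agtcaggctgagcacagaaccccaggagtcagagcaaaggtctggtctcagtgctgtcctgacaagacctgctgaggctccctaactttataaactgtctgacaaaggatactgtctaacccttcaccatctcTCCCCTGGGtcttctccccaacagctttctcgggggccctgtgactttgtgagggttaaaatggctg
Blk +28.1 kb (chr14:63626429-63626628, minus strand): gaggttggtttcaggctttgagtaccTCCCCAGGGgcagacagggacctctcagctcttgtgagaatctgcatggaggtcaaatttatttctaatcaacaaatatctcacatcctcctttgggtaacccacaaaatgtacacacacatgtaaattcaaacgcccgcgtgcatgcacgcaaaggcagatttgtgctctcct
Fcrla −1.1 kb (chr1:170756196-170756395, minus strand): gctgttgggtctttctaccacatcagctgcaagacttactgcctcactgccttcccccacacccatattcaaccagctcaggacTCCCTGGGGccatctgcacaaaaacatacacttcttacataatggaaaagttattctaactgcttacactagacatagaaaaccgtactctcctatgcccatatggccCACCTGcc
Fcrla +8.2 kb (chr1:170746838-170747037, minus strand): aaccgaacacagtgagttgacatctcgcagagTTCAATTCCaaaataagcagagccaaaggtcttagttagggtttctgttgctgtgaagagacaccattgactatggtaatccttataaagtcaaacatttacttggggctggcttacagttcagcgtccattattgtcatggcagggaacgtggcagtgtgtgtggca

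A region is named by the distance of its summit from the 5′ end of its gene, downstream being positive, or as the start region where the summit is close to an annotated start. The level given for a region is the summit pileup, the number of overlapping fragments or reads at the summit, which was solved from the deposited fold and p-value of each peak. The level over background is this pileup divided by the genome-wide background pileup of the library, which was 1.69, 2.05 and 1.83 in control 1, 2 and 3 and 2.34, 1.99 and 2.27 in HADA 1, 2 and 3. This background stands for relative depth, and it overlapped between groups. Total peaks ranged from 34045 to 41475 for control and from 44044 to 45799 for HADA. In leukocytes measured in bulk, a larger share of B cells and a more open site in each B cell cannot be told apart.

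The number of peaks at the 9 genes overlapped between groups, and control 3 stood apart from the other control libraries. Peaks at the 9 genes numbered 22, 18 and 9 in control 1, 2 and 3 and 23, 21 and 22 in HADA 1, 2 and 3, a mean of 16.3 ± 6.66 against 22.0 ± 1.0 (SD, n = 3 each). Per 10000 peaks of the same library, the values were 5.3, 4.37 and 2.64 against 5.18, 4.77 and 4.8, and the groups overlapped. All 9 genes had a peak in every library except control 3, which had none at Cd79a, Cd22, Blk or Cr2. Without control 3 the difference in the number of peaks fell from 5.67 to 2.0.

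Of the 25 regions, 12 lay in introns, 7 in exons and 6 upstream of the gene, and 15 had their summit within 3 kb of a start. A peak was called in all 6 libraries at 7 regions, in 3 HADA libraries at 20 regions and in 3 control libraries at 8 regions. Over all 62876 regions, 23970 had a peak in all 6 libraries. HADA libraries also had more regions with a peak genome-wide, 43565 to 45432 against 33600 to 40959 in control libraries. The shares of all regions with a peak in 3 HADA or in 3 control libraries were not computed. The commonest incomplete pattern was a peak in all libraries but control 3, seen at 9 regions, against 5.47% of all regions. Only 1 region, Blk +28.1 kb, had a peak in 3 of 3 HADA and 0 of 3 control libraries, against 7.01% of all regions. No region (0) had the opposite pattern, against 1.88% of all regions. The 50 bases at each of the 25 summits occurred once in the genome.

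**Figure D1:**
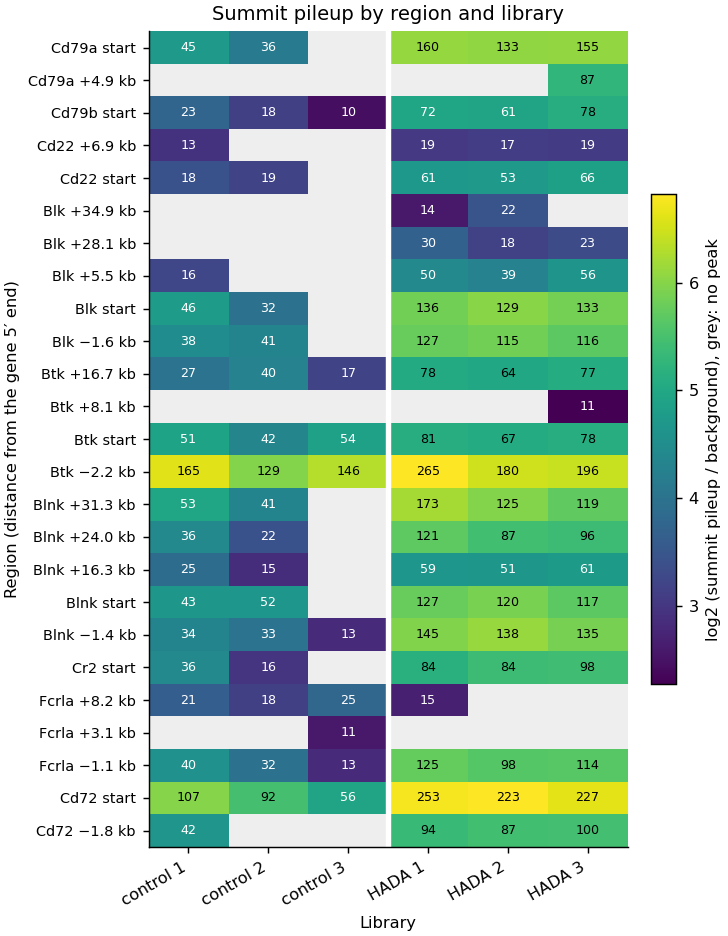
Summit pileup at the 25 regions (rows, named by distance from the gene 5′ end) in the 6 libraries (columns). Numbers are pileups, colour is the log2 of the pileup over the genome-wide background, and grey marks no called peak. Control 3 is grey at most rows and holds 9 peaks, while each HADA library holds 21 or 22.

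The signalling chains of the receptor had taller start peaks in HADA than in control libraries. At the Cd79a start region (chr7:24595709-24597331, GRCm39, summit in an exon) the pileup was 45 in control 1, 36 in control 2 and 160, 133 and 155 in HADA 1, 2 and 3, and no peak was called in control 3. Over background these were 26.7 and 17.5 against 68.4, 66.8 and 68.2, so every HADA library lay above both control libraries with a peak, 3.07-fold on average. Where a library had no peak, its level was set to the lowest pileup that would have been called there with the median local background of the libraries with a peak, which for control 3 was a pileup of 34. Such a local call limit is no firm bound. At the Cd79b start, control 3 had a called peak at a pileup of 10, under its limit of 23. With this local call limit the log2 difference, relative to the median of all regions in at least 3 libraries, was 1.34 ± 0.18 (SE, limma, adjusted p = 0.00269). Without control 3 it was 1.28 ± 0.16 (limma, adjusted p = 0.00569). The other Cd79a region, 4.9 kb downstream, was called in HADA 3 alone with a pileup of 87, and its summit lay within 1 kb of a start of Arhgef1.

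At the Cd79b start region (chr11:106204612-106205824, summit in an intron) a peak was present in all 6 libraries. The pileup was 23, 18 and 10 in control 1, 2 and 3 and 72, 61 and 78 in HADA 1, 2 and 3. Over background these were 13.6, 8.76 and 5.47 against 30.8, 30.6 and 34.3, a mean of 9.28 ± 4.1 against 31.9 ± 2.08 (SD, n = 3 each). The groups did not overlap and differed 3.44-fold, with an exact two-sided permutation p = 0.1, the lowest value possible with these group sizes. In the fit over the 23970 regions found in all libraries, which is centred on the median region, the Cd79b start differed by a log2 value of 1.5 ± 0.26 (limma, adjusted p = 0.00954). Without control 3 the log2 values of the groups differed by 1.17 ± 0.17 (limma, adjusted p = 0.00693). The RUNX letters of the Cd79b promoter printed above lie upstream of this summit, and 3.6% of the 21757 protein-coding promoters hold them.

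**Figure D2:**
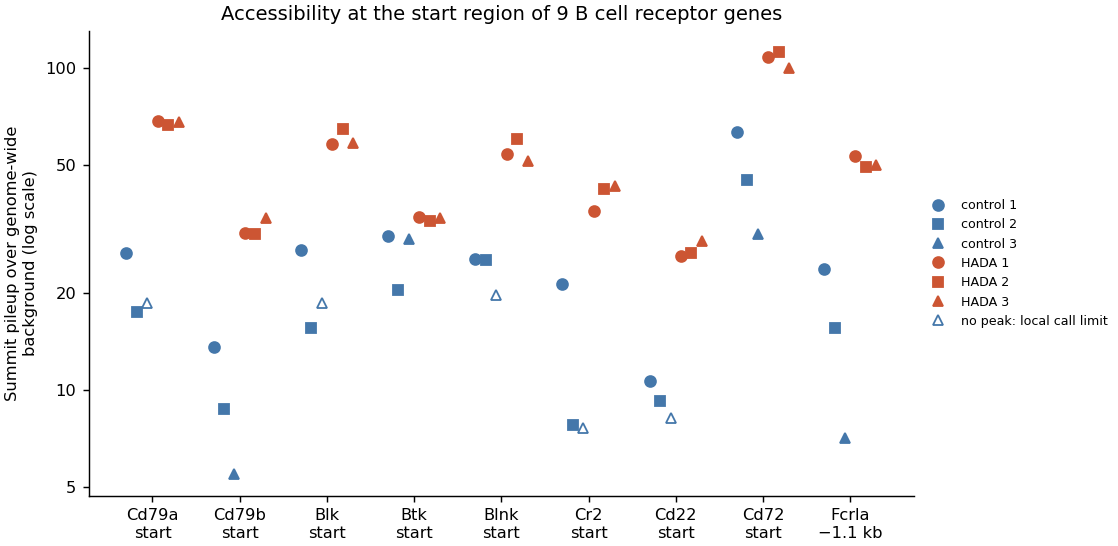
Summit pileup over the genome-wide background (log axis) at the start region of each gene, or for Fcrla at its upstream region, in 3 control and 3 HADA libraries (1 point each). Open triangles show the local call limit of control 3 where it had no peak. HADA points lie above control points or limits at every gene, and at the Btk start by little, 33.6 to 34.6 against 20.4 to 30.2. On this scale the median shared region is itself 0.34 higher in HADA (log2). The share of all regions without overlap was not computed.

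Blk, the Src family kinase of B cells, had 5 regions, and every HADA library had a peak at 4 of them. At the Blk start (chr14:63653992-63655141, summit 11 bp upstream of the gene) the pileup was 46 and 32 in control 1 and 2, absent in control 3, and 136, 129 and 133 in HADA 1, 2 and 3. At Blk −1.6 kb (chr14:63655919-63656449, upstream) it was 38 and 41, absent in control 3, and 127, 115 and 116. The lowest HADA library was 2.13-fold the highest control library at the start and 2.27-fold at −1.6 kb, over background. With control 3 at its limit the log2 difference was 1.22 ± 0.19 at the start (limma, adjusted p = 0.00378) and 1.06 ± 0.17 at −1.6 kb (limma, adjusted p = 0.00417), and without control 3 the values were 1.18 and 0.99 (limma, adjusted p = 0.00749 and 0.0069). The upstream stretch holds an EBF match, printed above.

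The intronic region Blk +28.1 kb (chr14:63626336-63626988) was the only HADA-only region of the 9 genes. Its pileup was 30, 18 and 23 in HADA 1, 2 and 3, and no peak was called in control 1, 2 or 3, whose local call limits were pileups of 8, 9 and 9. Over background the HADA levels were 12.8, 9.04 and 10.1, which is 2.28-fold the mean of the control limits. No test is given, since the region has no measured control value. This region is low compared with the Blk start, and it carries the other EBF match printed above. At Blk +5.5 kb the pileup was 16 in control 1 alone and 50, 39 and 56 in HADA 1, 2 and 3. The local limits of control 2 and 3 were 22 and 21, above the pileup measured in control 1, and no test is given, since the region was found through its HADA peaks. The fifth region, Blk +34.9 kb, was called in HADA 1 and HADA 2 alone, at pileups of 14 and 22.

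Btk, the Tec family kinase, differed between its regions. At the Btk start (chrX:133483273-133484328, summit in an intron) the pileup was 51, 42 and 54 in control 1, 2 and 3 and 81, 67 and 78 in HADA 1, 2 and 3. Over background these were 30.2, 20.4 and 29.5 against 34.6, 33.6 and 34.3, a 1.28-fold difference of means without overlap (exact two-sided permutation p = 0.1). Relative to the median shared region, which itself was 0.34 higher in HADA on the log2 scale of pileup over background, the difference was 0.00 ± 0.19 (limma, adjusted p = 0.996). Btk −2.2 kb (chrX:133486097-133486986), within 1 kb of a start of the ribosomal protein gene Rpl36a, had pileups of 165, 129 and 146 against 265, 180 and 196. Its levels over background overlapped between groups (exact two-sided permutation p = 0.4), and relative to the median shared region it differed by −0.10 ± 0.18 (limma, adjusted p = 0.689).

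In the Btk intron at +16.7 kb (chrX:133467305-133468086) the pileup was 27, 40 and 17 in control 1, 2 and 3 and 78, 64 and 77 in HADA 1, 2 and 3. This region was picked out after its values were seen. Over background the means were 14.9 ± 5.18 and 33.1 ± 0.882 (SD, n = 3 each), 2.22-fold apart without overlap. The log2 difference was 0.84 ± 0.27 (limma, adjusted p = 0.0393), and without control 3 it was 0.54 ± 0.21 and no longer called (limma, adjusted p = 0.0871). Within a library, the ratio of the intronic region to the Btk start was 0.529, 0.952 and 0.315 in control 1, 2 and 3 and 0.963, 0.955 and 0.987 in HADA 1, 2 and 3. The 2 sites of this gene were thus nearly equal in HADA libraries, and the ratio did not overlap between groups, although control 2 lay close to the HADA libraries (exact two-sided permutation p = 0.1).

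Blnk, the adaptor that links Syk to Btk and phospholipase C, had 5 regions. In the fit with local limits all 5 were called higher in HADA, against 22.2% of all 44013 regions in that fit. Control 3 was at its local limit in 4 of the 5. At the Blnk start (chr19:40982400-40983225, summit in an exon) the pileup was 43 and 52 in control 1 and 2, absent in control 3, and 127, 120 and 117 in HADA 1, 2 and 3. With control 3 at its limit, a pileup of 36, the mean levels differed 2.36-fold and the log2 values by 0.86 ± 0.19 (limma, adjusted p = 0.00943). Against the 2 control libraries with a peak the ratio was 2.18, and without control 3 the log2 difference was 0.75 ± 0.16 (limma, adjusted p = 0.0159). An octamer match lies in the promoter printed above, as in 1.3% of protein-coding promoters. At the intronic Blnk +31.3 kb (chr19:40951467-40952197) the pileup was 53 and 41, absent in control 3, and 173, 125 and 119, with a log2 difference of 1.42 ± 0.35 (limma, adjusted p = 0.0131) and 0.95 without control 3 (limma, adjusted p = 0.0117). The intronic regions at +16.3 and +24 kb were also absent in control 3, and with its limits their log2 differences were 1.08 (limma, adjusted p = 0.0081) and 1.51 (limma, adjusted p = 0.00502). Without control 3 these were 0.94 and 1.23 (limma, adjusted p = 0.0194 and 0.00975).

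Among the 7 regions with a peak in all 6 libraries, the difference was widest at Blnk −1.4 kb (chr19:40983882-40984820, upstream). This region was also picked out after its values were seen. Its pileup was 34, 33 and 13 in control 1, 2 and 3 and 145, 138 and 135 in HADA 1, 2 and 3. Over background the means were 14.4 ± 6.67 and 63.5 ± 5.15 (SD, n = 3 each), a ratio of 4.40, and the lowest HADA library was 2.95-fold the highest control library. The log2 difference was 1.89 ± 0.31 (limma, adjusted p = 0.00927) and without control 3 it was 1.45 ± 0.14 (limma, adjusted p = 0.00563).

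Cr2, the complement receptor, had 1 region. At its start (chr1:194858574-194859340, summit in an exon) the pileup was 36 and 16 in control 1 and 2, absent in control 3, and 84, 84 and 98 in HADA 1, 2 and 3. Control 1 and control 2 differed more from each other here than the HADA libraries did. The log2 difference was 1.52 ± 0.32 (limma, adjusted p = 0.00796), and without control 3 it was 1.27 ± 0.32 (limma, adjusted p = 0.0236). The E2A letters of the Cr2 promoter, printed above, are frequent and occur in 14.4% of protein-coding promoters, Blk and Fcrla among them.

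The start regions of the inhibitory receptors Cd22 and Cd72 moved in the same direction as those of Cd79a, Cd79b, Blk, Blnk and Cr2, while the Btk start was not called. At the Cd22 start (chr7:30577987-30580010) the pileup was 18 and 19 in control 1 and 2, absent in control 3, and 61, 53 and 66 in HADA 1, 2 and 3, with a log2 difference of 1.17 ± 0.18 (limma, adjusted p = 0.00368). Without control 3 the log2 difference was 1.08 ± 0.16 (limma, adjusted p = 0.0069). Cd22 +6.9 kb (chr7:30572370-30573089), 18 bp from another annotated start of the gene, was low in all libraries with a peak, at 13 in control 1 and 19, 17 and 19 in HADA 1, 2 and 3. No test is given for Cd22 +6.9 kb, since it has a single measured control value.

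Cd72 had the tallest peaks of the 9 genes apart from the region at Rpl36a. At the Cd72 start (chr4:43453669-43455105) the pileup was 107, 92 and 56 in control 1, 2 and 3 and 253, 223 and 227 in HADA 1, 2 and 3. Over background the means were 46.3 ± 16.4 and 107 ± 6.21 (SD, n = 3 each), 2.31-fold apart without overlap. The log2 difference was 0.89 ± 0.21 (limma, adjusted p = 0.0163) and 0.63 without control 3 (limma, adjusted p = 0.0171). Cd72 −1.8 kb (chr4:43456564-43457549) was called in control 1, at 42, and in HADA 1, 2 and 3 at 94, 87 and 100. It too was found through its HADA peaks, and no test is given for it. With the absent control 2 and 3 at their local limits the log2 difference over background was 0.89, and with the lowest called pileup of each library in their place it was 2.5.

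Fcrla, an intracellular Fc receptor-like protein of B cells, had 3 regions, which did not share one pattern. At Fcrla −1.1 kb (chr1:170754691-170756746, upstream) the pileup was 40, 32 and 13 in control 1, 2 and 3 and 125, 98 and 114 in HADA 1, 2 and 3. The levels over background were 15.5 ± 8.29 and 50.9 ± 2.21 (SD, n = 3 each), a ratio of 3.29, and the log2 difference was 1.5 ± 0.34 (limma, adjusted p = 0.014). At the intronic Fcrla +8.2 kb (chr1:170746679-170747356), picked out after its values were seen, the pileup was 21, 18 and 25 in control 1, 2 and 3, 15 in HADA 1, and no peak was called in HADA 2 or HADA 3. The HADA level, with limits of 8 and 9 in HADA 2 and 3, was 0.413-fold the control level. No test is given, since the region was found through its control peaks. Control 3, which had no peak at many of the other regions, was the highest library at this one. The upstream stretch holds EBF and E2A matches and the intronic stretch an ETS-IRF match, all printed above. Fcrla +3.1 kb was called in control 3 alone, at a pileup of 11.

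Among the regions that could be tested, calls at the 9 genes went mostly upwards. Of the 7 regions found in all 6 libraries, 5 were called higher in HADA (Cd79b start, Btk +16.7 kb, Blnk −1.4 kb, Fcrla −1.1 kb and Cd72 start) and 0 lower, while over all 23970 shared regions 17.9% were called higher and 24.1% lower (limma, Benjamini-Hochberg adjusted p under 0.05). Without the adjustment (limma, p under 0.05) the number called lower was also 0. The median log2 difference was 0.89 at the 7 regions and −0.0402 over all shared regions. Of the 16 regions with a peak in at least 2 libraries of each group, 14 were called higher, 0 lower and 2 neither with absent libraries at their local limit, against 19.8% higher and 24.0% lower over all 31064 such regions. Control 3 was the absent library at each of the 9 regions that had one, and there its limit enters the fit as a measured value. The median log2 difference of the 16 regions was 1.19, against −0.02 over all. These values come from a fit of all 44013 regions found in at least 3 libraries, of which 22.2% were called higher and 24.2% lower. It also holds Blk +28.1 kb, Blk +5.5 kb, Cd22 +6.9 kb, Cd72 −1.8 kb and Fcrla +8.2 kb, which passed mainly or only through 1 group and are not counted. With pileup divided by the library background and no centring, 5 of the 7 shared regions were again called higher, but the split over all shared regions turned to 31.0% higher and 18.3% lower. A further 4 regions, found in under 3 libraries, were not tested.

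The count of calls depended on single libraries. Without control 3, 13 of 16 regions found in the remaining 5 libraries were called higher, against 17.6% of all regions, with a median of 1.01 against 0.0383. Without HADA 2 the calls among the 7 shared regions fell to 2, and without HADA 3 to 3, where the shares of all regions called higher also fell, to 2.99% and 6.86%, while the median stayed between 0.89 and 1.13 with any library left out.

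**Figure D3:**
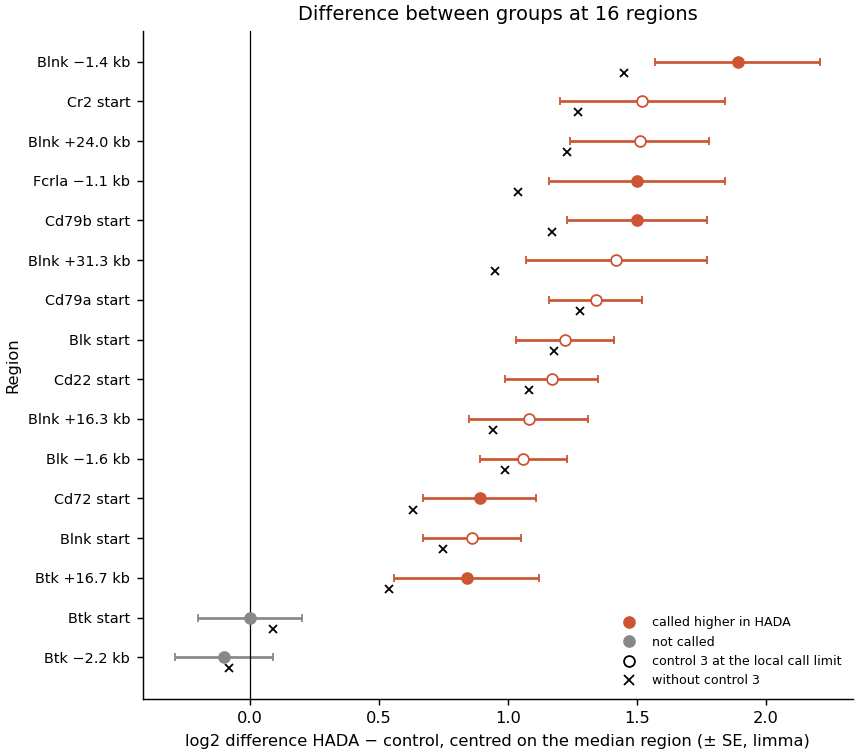
Log2 difference in summit pileup, HADA minus control, relative to the median region, at the 16 regions with a peak in at least 2 libraries of each group (points, bars ± SE, limma). Open points have control 3 at its local call limit and crosses give the value without control 3. Of the 16 regions, 14 are called higher, and the Btk start and Btk −2.2 kb lie near 0.

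The local background at these peaks was also higher in HADA libraries. It is not separate from peak height, since its window can hold the peak itself and neighbouring peaks. In HADA 1 it was nearly the same at the neighbouring Blnk start and Blnk −1.4 kb, at 25.5 and 25.8. The local background that the peak caller assigned to the Cd79b summit was 3.8, 2.6 and 1.3 times the genome-wide background in control 1, 2 and 3 and 8.1, 9.1 and 9.1 times in HADA 1, 2 and 3. At Blnk −1.4 kb it was 5.1, 3.6 and 1.4 against 11, 11 and 10.9. The ratio of HADA to control local background was 3.45 at Cd79b, 3.24 at Blnk −1.4 kb, 3.25 at Fcrla −1.1 kb and 2.56 at Cd72, but 1.34 at the Btk start. The median ratio was 2.56 over the 7 shared regions of the 9 genes and 1.2 over all shared regions. The deposited fold divides the summit by this local background, and at Cd79b it was 3.22, 3.04 and 3.30 in the control libraries against 3.64, 3.23 and 3.65 in the HADA ones, so that the groups overlapped. When regions were ranked by the fold within each library, 1 of the 7 regions, Blnk −1.4 kb, was called higher, at 0.77 on the normal-score scale (limma, adjusted p = 0.0365), against 6.56% of all shared regions.

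**Figure D4:**
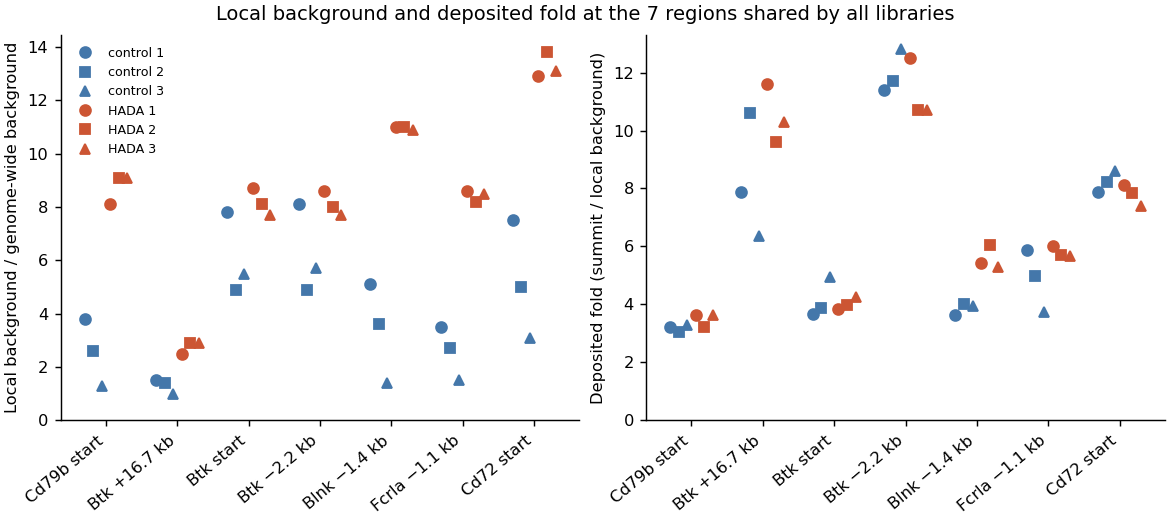
Local background over genome-wide background (left) and deposited fold of the summit over the local background (right) at the 7 regions found in all libraries, 1 point per library. The local background at Blnk −1.4 kb is 10.9 to 11 in HADA and 1.4 to 5.1 in control libraries, while the fold does not overlap between groups at Blnk −1.4 kb and overlaps at the other 6.

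The called peaks were also wider in HADA libraries, a measure that grows with peak height. Peaks were wider in every HADA than in every control library at 5 of the 7 shared regions, against 34.9% of all shared regions. At Cd79b the width was 379 ± 32.7 bp in control and 979 ± 122 bp in HADA libraries (SD, n = 3 each), and at Fcrla −1.1 kb it was 448 ± 169 and 1600 ± 746 bp. The Fcrla peak reached over the gene start in HADA 2 and HADA 3, to 415 and 461 bp inside the gene, and ended 774 bp upstream of it in HADA 1. At the Cd22 start the peak was 400 and 382 bp wide in control 1 and 2 and 1734, 1933 and 1753 bp wide in HADA 1, 2 and 3.

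The summit of the Cd72 start region had a different position in each group. It lay 362, 379 and 358 bp inside the gene in control 1, 2 and 3 and 656, 663 and 665 bp inside it in HADA 1, 2 and 3, a shift of 295 bp without overlap (exact two-sided permutation p = 0.1). This measure was chosen after the values were seen. Among the 7 shared regions it was the only one whose summits were apart by 200 bp or more on average, against 3.8% of all shared regions.

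**Figure D5:**
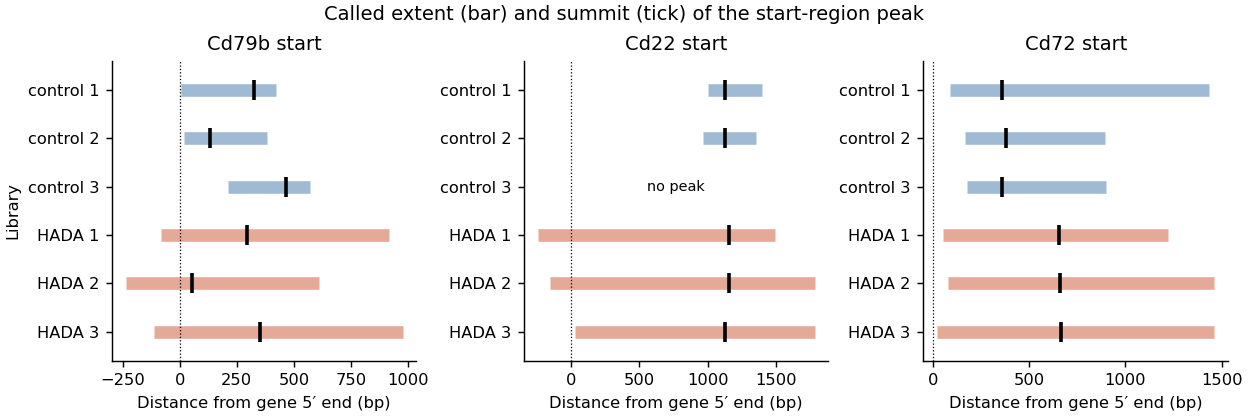
Called extent (bars) and summit (ticks) of the start-region peak at Cd79b, Cd22 and Cd72 in each library, in bp from the gene 5′ end. The bars are longer in HADA libraries at Cd79b and Cd22, and the Cd72 ticks lie at 656 to 665 bp in HADA and at 358 to 379 bp in control libraries.

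The regions did not all move by the same amount. Within a library, the Cd79b start was 0.451, 0.429 and 0.185 times the Btk start in control 1, 2 and 3 and 0.889, 0.91 and 1.0 times in HADA 1, 2 and 3. The Cd72 start was 2.1, 2.19 and 1.04 times the Btk start in the control libraries against 3.12, 3.33 and 2.91 times in the HADA ones. Against the Cd72 start, the Cd79b start was 0.215, 0.196 and 0.179 in the control libraries against 0.285, 0.274 and 0.344 in the HADA ones. None of these ratios, which need no scaling between libraries, overlapped between groups (exact two-sided permutation p = 0.1 for each of 5 ratios computed, not adjusted).

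Of 28 other genes of B cell receptor signalling, 27 had a start region in all libraries, of which 6 were called higher, against 17.9% of all shared regions, and 0 lower, against 24.1% (limma, and 0 lower at an unadjusted p under 0.05). Among these were Cd81, a tetraspanin of the B cell coreceptor (1.09), Fyn, a Src family kinase (0.96), Rasgrp3, a Ras exchange factor (1.90), Bank1, a B cell scaffold (0.70), and Fcgr2b, the inhibitory Fc receptor (0.56), all as log2 differences with limma adjusted p of 0.00927, 0.0246, 0.0104, 0.0306 and 0.0427. Among those not called were Syk, the kinase that binds the phosphorylated chains, at 0.00 (limma, adjusted p = 0.992), Lyn at −0.56 (limma, adjusted p = 0.142) and Plcg2 at −0.01 (limma, adjusted p = 0.952).

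Markers of blood cell types moved in the same libraries. The summed levels given here for marker genes count a start region without a peak as 0, so they are too low where a library lacks peaks. They are over background and not centred, and on that scale the median shared region was itself 0.34 higher in HADA (log2). The 9 other B cell marker genes with a start region had a summed level over background of 316 to 466 for control and 724 to 860 for HADA, with 5 of them present in control 3, 8 in control 1 and 2 and 9 in each HADA library. Of the 5 found in all libraries, 3 were called higher and 0 lower (limma, and 0 lower at an unadjusted p under 0.05), against 17.9% and 24.1% of all shared regions, among them Pax5 at 2.02 (limma, adjusted p = 0.0115) and Ms4a1 at 1.97 (limma, adjusted p = 0.0234). Neutrophil markers moved the other way, from 150 to 364 for control down to 33.4 to 97.4 for HADA, with 7 of 7 present in each control library and 6, 5 and 4 in HADA 1, 2 and 3. Control 3 was highest at 364, and all 4 markers found in all libraries were called lower (24.1% of all shared regions), among them S100a8 at −2.31 (limma, adjusted p = 0.0109). The labels and methods name leukocytes as the input, while the study's results text names mononuclear cells, a fraction normally poor in neutrophils. No start region was present for Ly6g or Spib.

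For T cells the summed level of markers ran from 231 to 321 for control and from 365 to 413 for HADA, with 2 of the 7 found in all libraries called higher, against 17.9% of all shared regions, and no start region was found for Cd4 or Cd8a. Monocyte markers overlapped at 128 to 188 and 144 to 174 and went both ways. All 3 found in all libraries were called lower, against 24.1% of all shared regions. With absent libraries at their local limit, 3 of 5 were called lower and 1 higher, against 24.2% and 22.2% of all regions in that fit. The 1 higher was Ly6c2 at 0.93 (limma, adjusted p = 0.0139), with control 3 at its limit. Natural killer cell markers overlapped at 11.5 to 42.6 and 42.3 to 58.9, plasmacytoid dendritic cell markers ranged from 86.7 to 114 and from 118 to 142, and erythroid and platelet markers, of which 3 had a start region, from 9.29 to 20.4 and from 29.5 to 47. Centred on the median region, with local limits, the median log2 difference was 0.29 for T cell and 0.4 for natural killer cell markers. For plasmacytoid dendritic cell markers it was 0.01, and for erythroid and platelet markers 0.81. As summed levels over background, the tallest regions near the starts of the 9 genes came to 242, 165 and 72.7 in control 1, 2 and 3 and to 470, 486 and 469 in HADA 1, 2 and 3. Of these 9 regions control 3 had a peak at 4 and the other libraries at 9, so the value of 72.7 takes 5 regions as 0. The part of cell composition in the differences at the 9 genes was not tested.

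Sequence around the summits was compared with all 62876 regions, on both strands and within 100 bp of the summit. The EBF letters were found at 3 of 25 regions (12.0% against 4.59% of all regions), the ETS-IRF letters at 4 (16.0% against 7.1%), E2A at 5 (20% against 16.0%), the octamer at 1 (4.0% against 1.64%) and PU1 (GAGGAAGT) at 1 (4.0% against 4.14%). RUNX, CTCF (AGNGGGCGC) and AP1 (TGANTCA) were found at 0 of 25, against 7.11%, 1.22% and 5.51% of all regions. The 3 EBF regions were Fcrla −1.1 kb, Blk −1.6 kb and Blk +28.1 kb, and the octamer region was the Blnk start, through a match inside the gene that is not the promoter match printed above. Counts this small are a description of the letters in these windows. The median GC content within the windows was 51.2% at the 25 regions and 49.8% over all regions.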

How the data were processed

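ATAC-seq of blood leukocytes was analysed in 3 control and 3 HADA libraries, grouped by the labels. Per the submitters' processing notes and methods, the authors checked reads with FastQC, trimmed them with Trimmomatic, aligned them to GRCm39 with Bowtie2, used Picard against duplicates and ran MACS2 on each library; the MACS2 options and any shift for the Tn5 cut are not given in the sources used here. The deposited lists give each peak a fold ratio against the local background, its p-value and q-value on the −log10 scale, and a score, which was not used. The summit pileup and local background were solved exactly from the deposited fold and −log10 p-value for 100% of peaks. Read totals were not analysed here, so depth is known only as the genome-wide background pileup.

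Peaks sharing 1 bp were joined into regions, and 0 regions ended beyond a GRCm39 chromosome. Genes and starts came from GENCODE M39. The main test was limma 3.58.1 (R 4.3.3) on log2 pileup, centred on the median region of each library, over all regions in 6 libraries, with Benjamini-Hochberg adjustment at 0.05. Single values were compared by an exact two-sided permutation test of group means (scipy 1.17.1), whose smallest p is 0.1 here. Regions in at least 3 libraries were also tested with absent libraries at the local call limit, an alternative added after seeing the data. Given in full were, for each gene, the tallest region within 1 kb of a start, the tallest other region and any region of 1 group only. The members and lists were chosen with earlier results of these data known. Values for some genes of the lists are not reported here.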

Additional observations from a re-analysis of the deposited data

How the results depend on the processing

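Of the alternatives run on the results above, 192 left the value on the same side, 27 moved it and 2 reversed it. The number of HADA-only regions was 1 in the lists as deposited, 3 with a −log10 q of at least 5, 2 with the same number of strongest peaks per library and 2 when only summits within 150 bp were joined, and leaving out 1 library gave 1 to 4 (4 without control 1, 2 without HADA 3). Control-only regions numbered 0, and 1 with the same number of strongest peaks, 1 with summits joined and 0 to 1 with a library left out (1 without HADA 1). Shared regions called higher numbered 5 of 7, 2 of 4 with a −log10 q of at least 5, 2 of 5 with summits joined, 1 of 7 by the rank of the fold, and 2 to 13 with a library left out (13 of 16 without control 3). With absent libraries at the lowest called pileup of the library, 9979 of all 44013 regions were called higher and 9717 lower. Their median log2 difference was 0.07. At the local limit 9754 of them were higher and 10667 lower. Among the 21 tested regions of the genes followed here, 16 were higher and 1 lower at the lowest called pileup (median 1.5). At the local limit, 17 of the 21 were higher and 1 lower. Both counts include regions that passed mainly or only through 1 group (Blk +28.1 kb, Blk +5.5 kb, Cd72 −1.8 kb and, as the 1 lower, Fcrla +8.2 kb), whose calls are no result. At the Blnk start the log2 difference over background was 1.24 with the local limit and 1.97 with the lowest called pileup. Fewer regions are tested with stricter peaks or joined summits, and without HADA 2 the calls over all regions also fell, to 737 higher and 2021 lower. Relative to the median shared region the Btk start turned from 0.38 to −0.00 and Btk −2.2 kb from 0.28 to −0.10, since that region is itself 0.34 higher in HADA. The replicate numbers did not pair the libraries: the correlations of same-numbered deviations were −0.08, 0.075 and −0.376. With the replicate number as a block 5 of 7 regions were again called higher, while over all 23970 shared regions 2991 were higher and 5660 lower. Within 250 bp of the summit the motif counts were EBF 5, octamer 3, PU1 6, E2A 12, RUNX 3, ETS-IRF 7, CTCF 2 and AP1 1. Dividing by the background and allowing an intensity trend each left 5 of 7 called higher, against 7433 and 4417 of all 23970 shared regions. The causes of the other moves were not tested. Regions found in under 3 libraries could not be tested. The level of a region without a peak is not known, and its local call limit is an estimate under which some peaks were called.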

Other observations

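The genes whose start region followed the 9 genes most closely were sought among 4075 other protein-coding genes. The profile of the 9 genes, the mean of their 21 regions in median-centred log2 pileup with absent libraries at the lowest called pileup, was −0.79, −1.12 and −1.94 in control 1, 2 and 3 and −0.09, −0.12 and −0.03 in HADA 1, 2 and 3. Most control 3 values in this profile are such limits, as control 3 had a peak at 8 of the 21 regions. Of the 21 regions, Fcrla +8.2 kb (r = −0.915), Btk −2.2 kb (−0.423) and the Btk start (−0.361) ran against the profile. The closest genes were Agpat3 (Pearson r = 0.9998 over the 6 libraries), Hdac11 (0.9994), Shisa5 (0.9994), Bik (0.9993) and Tmem231 (0.9992), followed by Zfp846 (0.9992), Stimate (0.9991), Gtf3c6 (0.999), Kalrn (0.9986) and Spry4 (0.9986). The 6 points share 2 groups and the low value of control 3, so such values describe the order of the libraries and nothing of shared control.

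The median width of the peaks at the 9 genes was 619.5, 523 and 451 bp in control 1, 2 and 3, where all peaks had medians of 738 to 750 bp, and 750.5, 816 and 880 bp in HADA 1, 2 and 3, where all peaks had medians of 747 to 772 bp. The medians are over the regions with a peak in each library (20, 17 and 9 regions for control 1, 2 and 3, and 22, 21 and 22 for HADA 1, 2 and 3), so they compare different sets of regions.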
